A study of Mus musculus with 19 samples.

Results

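The troponin genes of mouse muscle were followed over C2C12 cells and soleus muscle on 1-colour whole mouse genome arrays. The probes were chosen by name only. Every spot that the array design assigns to Tnni1, Tnni2, Tnni3, Tnnt1, Tnnt2, Tnnt3, Tnnc1 or Tnnc2 was taken, which gave 12 probes for 8 genes out of 41174 probes with 27793 gene names. No further probe carried an accession of these genes under another name. Tnni1, Tnni3, Tnnt2 and Tnnt3 have a pair of probes each, called probe 1 and probe 2 here.

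The study asked how raised class IIa histone deacetylases alter gene expression in muscle cells and whether the same genes change in muscle of obese mice. C2C12 is a line of mouse myoblasts, the precursors of muscle fibres. The WT group (6 samples) carried the empty plasmids and the HDAC4&5 group (6 samples) carried plasmids for wild-type human HDAC4 and HDAC5. Both groups had been selected with Hygromycin B and Geneticin, each at 500 µg/ml, were kept in growth medium and were collected 48 h after seeding, before full confluence. The study's methods give fewer biological replicates than the 6 samples a group that the labels list, so some samples may share a culture, and C2C12 p-values may then be too small. Whether each line was a clone or a pool is not given in the sources used here, and the study's methods describe the HDAC4&5 cells as unable to become myotubes. The soleus muscles came from male mice on a C57BL6J background, 3 heterozygous db -/+ littermates (Con) and 4 obese homozygous (db/db) mice, written db +/+ in the labels (db), all 12 weeks old and fasted for 5 h. The db allele disables the leptin receptor in every tissue, so these mice are no model of raised HDAC4 and 5 alone. RNA was taken from whole muscle, in which fewer cells of a type and less RNA per cell cannot be told apart.

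Troponin is the calcium switch of striated muscle. Troponin C binds calcium, troponin I holds the thin filament off while calcium is low, and troponin T ties the complex to tropomyosin on actin. Each subunit has isoforms that mark fibre types. Tnni1 and Tnnt1 encode the slow skeletal forms, Tnni2 and Tnnt3 the fast skeletal forms, and Tnni3 and Tnnt2 the cardiac forms. Tnnc1 serves slow and cardiac muscle and Tnnc2 serves fast muscle. Tnnt2 and Tnni1 are also made by embryonic skeletal muscle and by differentiating muscle cells in culture, and soleus is a mouse muscle rich in slow fibres.

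Values are log2 of the processed spot intensity minus the 75th percentile of its array, so that 0 is the brightness of the 75th percentile probe. This percentile ran from 494 to 1691 on the C2C12 arrays, from 153 to 232 on the soleus arrays of slide 1 and from 555 to 686 on those of slide 2. Each of the 3 C2C12 slides and of the 2 soleus slides held both groups, and no slide held cells and muscle. The C2C12 markers were checked against the label. In WT cells 4 of 6 myoblast genes were well above background on every array, Myf5 and Pax7 being on none. In HDAC4&5 cells Myod1, which sets the muscle lineage, was also on none, and the summed level of the 6 genes ran from 4.59 to 5.11 times the 75th percentile against 93.5 to 190 in WT cells. The WT sum was limited by the scanner, as Cdh15 was saturated on 5 WT arrays and Des on 2. The summed level of 6 fibroblast genes, 4 of them well above background on every array in both groups, ran from 21.7 to 23.5 in HDAC4&5 cells and from 6.87 to 8.09 in WT cells, but its members went both ways, as Col1a1 (3.34) and Pdgfra (2.18) were higher and Postn (-4.52) and Dcn (-1.32) lower in HDAC4&5 cells on the log2 scale. The part of these differences in the troponin values below was not tested.

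In HDAC4&5 cells the troponins were lower than in WT cells, by very different amounts. The fast troponin I, Tnni2, differed by -8.84 on the log2 scale and the slow troponin T, Tnnt1, by -8.57, while the slow troponin I, Tnni1, had no signal well above background left. The fast troponin C, Tnnc2, differed by -7.88 and the fast troponin T, Tnnt3, by -6.23 and -6.64 at its probes. Tnnc1 differed by -3.54 and the cardiac troponin T, Tnnt2, by -2.35. The cardiac troponin I, Tnni3, dim in both groups, was lower by less than 1. Of the 11 probes tested, 10 passed an adjusted p of 0.05 as lower in limma, where 68.3% of all 21477 probes tested passed, 36.5% as higher and 31.8% as lower. A probe had to clear the background limit on all arrays of one group or the other to be tested, so probes seen in WT cells only had to differ. The 6 that cleared it on all 12 arrays all passed. The median difference was -6.64 over the 11 probes and 0.055 over all probes tested.

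**Figure D1:**
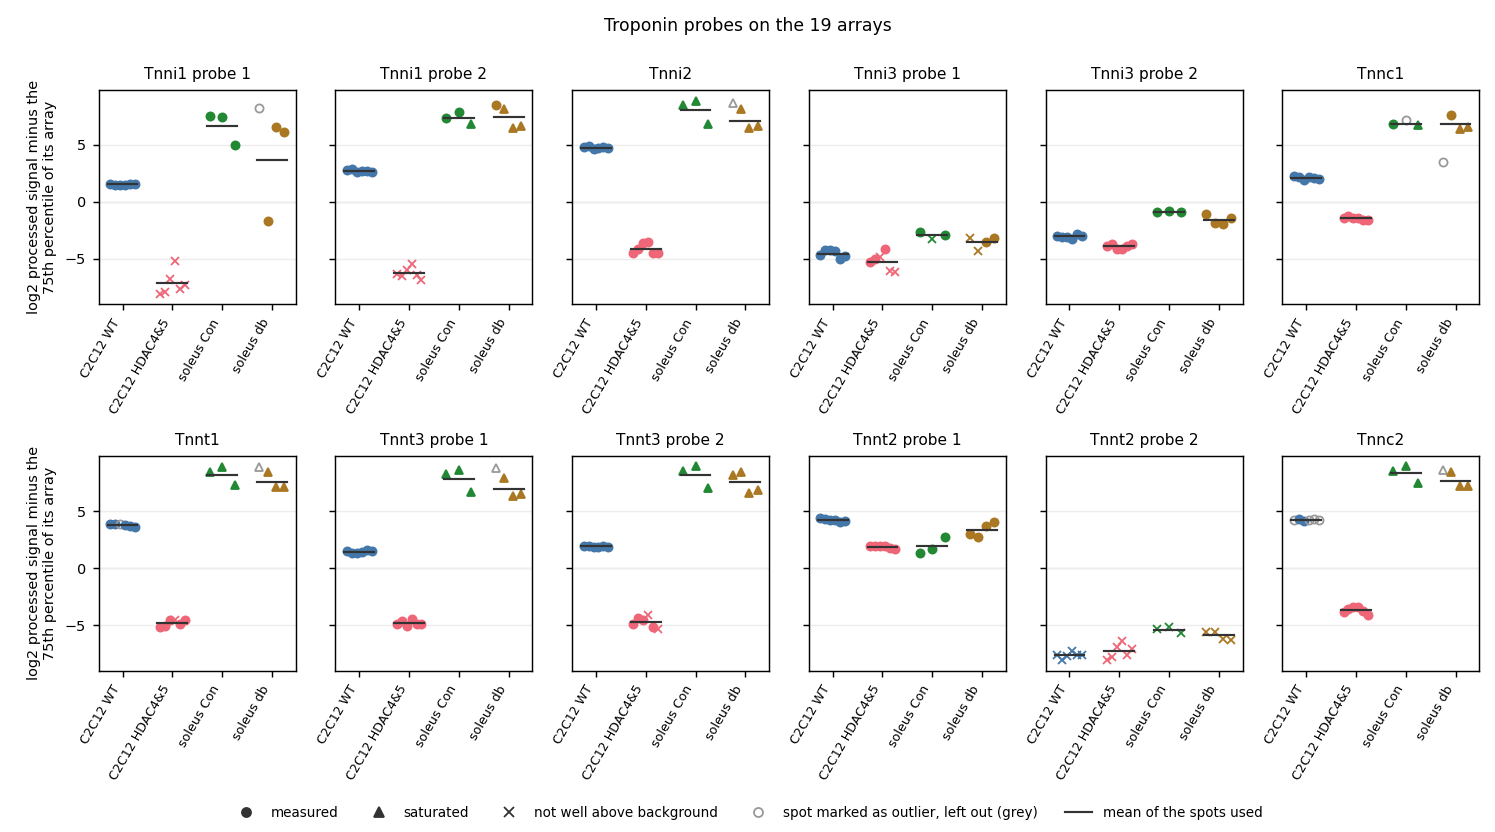
Log2 processed intensity minus the 75th percentile of its array (y axis) for the 12 troponin probes in 6 C2C12 WT, 6 C2C12 HDAC4&5, 3 soleus Con and 4 soleus db samples. Each point is an array and each bar the mean of the spots used. Triangles are saturated spots, crosses are spots not well above background, and grey open symbols are spots marked as outliers and left out. HDAC4&5 cells lie lowest for the skeletal forms, and 5 probes are saturated on every soleus array.

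Troponin I is the inhibitory subunit. Tnni2, the fast form (chromosome 7 of mm9, 149630241 to 149630300, plus strand), read 4.82, 4.86, 4.59, 4.67, 4.79 and 4.68 on the 6 WT arrays. The HDAC4&5 arrays read -4.52, -4.13, -3.57, -3.49, -4.45 and -4.47. The groups lay far apart beside their spread (SD 0.10 and 0.47, n = 6 each). Tnni2 was 458-fold lower (log2 difference -8.84, standard error 0.18, adjusted p = 1.46e-13 from limma) and was still well above background on every HDAC4&5 array.

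Tnni1, the slow form, has a pair of probes on chromosome 1 of mm9, on the plus strand. Probe 1 spans 137704148 to 137705229 and probe 2 spans 137705328 to 137706203. Both spans are longer than the 60 bases of a probe, and the files do not say which exons they touch. Probe 2 read 2.80, 2.88, 2.62, 2.67, 2.72 and 2.64 in WT cells, and probe 1 read 1.57, 1.49, 1.43, 1.51, 1.56 and 1.55. On the HDAC4&5 arrays neither probe was well above background on any of the 6, so that only a bound can be given. Against the lowest signal that counted as well above background on each array, probe 1 was at least 119-fold lower and probe 2 at least 274-fold lower (adjusted p = 4.38e-10 and 2.52e-13 from limma). The bounds belong to this background correction, and with normexp the differences were -4.53 and -5.61 on the log2 scale. The measured means were -7.14 and -6.26 in HDAC4&5 cells against 1.52 and 2.72 in WT cells.

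Tnni3, the cardiac form, stood near the lower end of what the arrays measured. Its probes lie on the minus strand of chromosome 7, probe 1 from 4472043 to 4472102 and probe 2 from 4471117 to 4471176. Probe 2 read -2.99, -3.08, -3.07, -3.24, -2.81 and -3.00 in WT cells and -3.88, -3.67, -4.15, -4.16, -3.87 and -3.65 in HDAC4&5 cells, without overlap. It differed by -0.87 (standard error 0.10, adjusted p = 5.80e-06 from limma). Probe 1 averaged -4.54 in WT cells (SD 0.33, n = 6) and ran from -6.12 to -4.13 in HDAC4&5 cells, where 3 of 6 arrays were well above background. The groups overlapped, and its difference of -0.72 (standard error 0.31) missed the threshold with an adjusted p of 0.0555 from limma, although it passed with slide as a block (adjusted p = 0.00364 from limma) and with samples paired by replicate number (adjusted p = 0.00839 from limma). With normexp background correction, which treats dim spots differently, probe 2 differed by -0.040 and did not pass, and probe 1 turned to 0.31. The call at probe 2 and the direction at probe 1 therefore depended on the background correction.

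Troponin T anchors the complex. Tnnt1, the slow form (chromosome 7, 4460086 to 4460145, minus strand), read 3.88, 3.90, 3.78, 3.71 and 3.58 on 5 WT arrays, the third array being left out as an outlier spot at 3.83. The HDAC4&5 arrays read -5.14, -5.06, -4.57, -4.57, -4.93 and -4.53, with 5 of 6 well above background. Nothing lay between the groups. Tnnt1 was 380-fold lower (log2 difference -8.57, standard error 0.13, adjusted p = 5.23e-14 from limma).

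Tnnt3, the fast form, has probes on the plus strand of chromosome 7, probe 1 from 149698500 to 149700262 and probe 2 from 149698254 to 149698479. In WT cells probe 1 ran from 1.29 to 1.55 with a median of 1.46, and probe 2 from 1.82 to 1.98 with a median of 1.91. In HDAC4&5 cells probe 1 ran from -5.03 to -4.44 with a median of -4.87, and probe 2 from -5.35 to -4.10 with a median of -4.73. Both probes placed the HDAC4&5 cells more than 5 log2 units below every WT array. Probe 1 was lower as well (log2 difference -6.23, standard error 0.09, adjusted p = 1.18e-14 from limma) and probe 2 was 99.8-fold lower, with 4 of its 6 HDAC4&5 spots well above background.

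Tnnt2, the cardiac and embryonic form, kept a clear signal. Probe 1 (chromosome 1, 137747976 to 137748288, plus strand) read 4.35, 4.32, 4.22, 4.24, 4.05 and 4.12 in WT cells. It read 1.90, 1.96, 1.93, 1.97, 1.78 and 1.64 in HDAC4&5 cells, well above background on all 6 arrays. The groups did not overlap. Tnnt2 was 5.11-fold lower (log2 difference -2.35, standard error 0.07, adjusted p = 7.38e-12 from limma), the smallest difference of the 3 troponin T genes. Probe 2 (137735641 to 137735700), designed on another transcript record than probe 1, was not well above background on any of the 19 arrays and gave no comparison.

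Troponin C binds calcium. Tnnc1, the slow and cardiac form (chromosome 14, 32023360 to 32023776, plus strand), read 2.25, 2.20, 1.94, 2.15, 2.05 and 1.97 in WT cells and -1.41, -1.28, -1.42, -1.38, -1.59 and -1.62 in HDAC4&5 cells. The groups did not overlap, and all 12 spots were well above background. Tnnc1 was 11.7-fold lower (log2 difference -3.54, standard error 0.08, adjusted p = 2.31e-13 from limma). Tnnc2, the fast form (chromosome 2, 164602661 to 164602720, minus strand), had 4 of 6 WT spots marked as outliers. Those 4 read 4.18, 4.19, 4.28 and 4.19, and the remaining 2 read 4.29 and 4.11. The outlier marks thus fell on spots no different in level from the others. HDAC4&5 cells read -3.84, -3.62, -3.41, -3.38, -3.72 and -4.09, and Tnnc2 was 235-fold lower over the spots used (log2 difference -7.88, standard error 0.18, adjusted p = 5.51e-10 from limma).

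**Figure D2:**
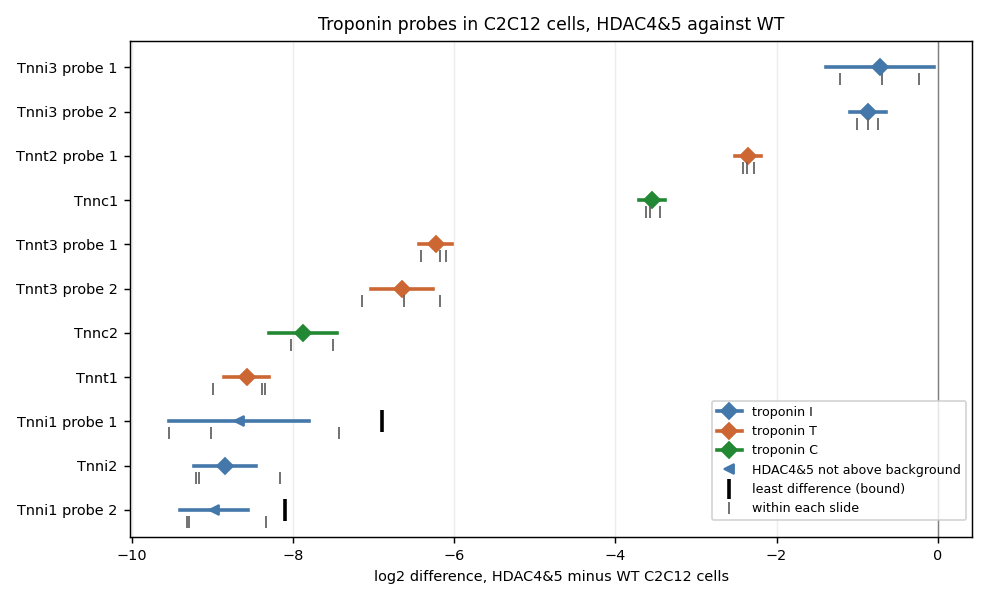
Log2 difference of the 11 tested troponin probes between HDAC4&5 and WT C2C12 cells (x axis, 6 samples each), with 95% intervals from limma. Grey ticks are the differences within each slide and thick black ticks the least difference the data allow for the Tnni1 probes, which were not well above background in HDAC4&5 cells. The probes range from -8.98 to -0.72.

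The size of the largest differences depended on the background correction. With normexp Tnni2 differed by -7.18, Tnnc2 by -6.40, Tnnt1 by -6.26 and the Tnnt3 probes by -4.27 and -4.45, and all 5 still passed, while Tnnc1 (-3.21) and Tnnt2 probe 1 (-2.43) moved less.

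The differences held within slides. In 32 combinations of a probe and a slide with both groups measured, the HDAC4&5 mean was below the WT mean in 32, and every HDAC4&5 array lay below every WT array of its slide in 31. The exception was Tnni3 probe 1 on slide 2. Except for Tnni3 probe 1, whose groups overlapped, all tested probes separated the groups, where the groups of 52.5% of all probes tested did not overlap. For the probes with 6 arrays used in each group the exact permutation test, two-sided, gave p = 0.00216, the smallest it allows, and Tnni3 probe 1 gave p = 0.0649 in the same exact test. No C2C12 troponin spot was saturated, and the 5 outlier spots all lay in WT cells.

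Because the isoforms fell by different amounts, their balance shifted. For each array the log2 value of one probe was subtracted from that of another, and only the change between groups is given, since probes of different genes cannot be set against each other in level. Within troponin T, the balance of slow Tnnt1 to fast Tnnt3 probe 1 changed by -2.31. The cardiac Tnnt2 moved the other way, ending 6.22 higher relative to Tnnt1 and 3.88 higher relative to Tnnt3 in HDAC4&5 cells. Within troponin C, the slow and cardiac Tnnc1 ended 4.36 higher relative to the fast Tnnc2. Within troponin I, the cardiac Tnni3 probe 2 ended 7.97 higher relative to Tnni2. These 5 per-array balances did not overlap between the groups, but this follows from the unequal differences above and is no separate result. The troponin C balance rested on 2 WT arrays and those with Tnnt1 on 5. In HDAC4&5 cells Tnnt1 and Tnnt3 probe 1 both averaged -4.80. The lowest signal counted as well above background ran from -5.89 to -4.57 on these arrays. Signal near background can therefore set part of the balances with these probes, including the change of -2.31. Tnni3 probe 2 (-3.90) and Tnni2 (-4.11) were dim there as well. For slow against fast troponin I the change was -0.14, the groups overlapped, and Tnni1 had no level above background in HDAC4&5 cells.

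Genes that work beside troponin were taken as lists, each gene by its brightest probe. The filter for testing was the same as for the troponins, so list genes seen in WT cells only could come out as lower but not as higher. Folds given as at least for list genes belong to this background correction, as for Tnni1, and were not computed under another. Over all 14176 genes tested, 5179 were higher and 4590 lower in HDAC4&5 cells. Of 15 tested thin filament genes other than troponins, 9 were lower and 4 higher, with a median of -2.09. The lower ones included skeletal actin Acta1 (-7.63), the nebulin-related anchoring protein Nrap (-7.48) and the actin nucleator Lmod3 (-7.34). Nrap and Lmod3 cleared the background limit on 4 HDAC4&5 arrays each, so their sizes are uncertain. Nebulin, Neb, which spans the thin filament, was at least 34.6-fold lower. The 4 that rose were the tropomyosins Tpm1 (0.93) and Tpm3 (0.37) and the capping proteins Tmod3 (1.39) and Tmod4 (1.13). Tmod4 was dim in both groups, with means of -4.64 in WT and -3.52 in HDAC4&5 cells. Tpm2 differed by 0.061 and Tpm4 by 0.29 without passing. At the brightest probe of each gene, tropomyosin, the strand to which troponin T binds, thus did not follow the troponins. Tpm4 was saturated on 3 arrays of each group and Tpm3 on 1 WT array, which can hide part of a difference. Which transcripts these probes read is not given in the sources used here.

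Of 9 tested fast fibre genes, 9 were lower and none higher, with a median of -5.54. This count is partly set by the filter. Myh1 and Mybpc2 cleared the background limit on no HDAC4&5 array, Casq1 on 1, Myl1 and Myoz1 on 2 each and Mylk2 on 5. Only Mylpf, Actn3 and Atp2a1 cleared it on all 6. The largest differences were those of the light chain Myl1 (-11.12), the myosin kinase Mylk2 (-8.45), the Z-disc protein Actn3 (-7.75) and the light chain Mylpf (-7.36). The size for Myl1 is uncertain, as it rested mostly on spots not well above background in HDAC4&5 cells. Of 11 slow fibre genes, 7 were lower and 3 higher, with a median of -3.20. The slow light chain Myl3 was at least 119-fold lower, and Myoz2, a calcineurin-binding Z-disc protein, at least 22.0-fold lower. Ankrd2, a stretch-responsive protein, differed by -7.45 and Csrp3, a Z-disc LIM protein, by -4.77. Both sizes are uncertain, as Ankrd2 cleared the background limit on 2 HDAC4&5 arrays and Csrp3 on 1. Myh7, the slow myosin heavy chain, was higher by 1.44. The slow troponins Tnni1 and Tnnt1 therefore moved the opposite way to this slow myosin. Myh7 was dim, however, with means of -3.60 in WT and -2.16 in HDAC4&5 cells, and its rise was not tested under another background correction.

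Of 7 tested cardiac and embryonic genes, 7 were lower, with a median of -3.01. They included the embryonic myosin Myh3 (-8.73), the neonatal myosin Myh8 (-5.29), cardiac actin Actc1 (-3.07) and the natriuretic peptide gene Nppb (-3.01). The filter bears on this count too, as Myh3 and Mybpc3 cleared the background limit on 1 HDAC4&5 array each, Myh8 on 2 and Nppb on 5. The sizes for Myh3 and Myh8 thus rested mostly on spots not well above background in HDAC4&5 cells. Of 19 tested muscle transcription factors, 15 were lower and 1 higher, with a median of -1.23. Myog, which drives terminal differentiation, was at least 765-fold lower, Myod1 at least 261-fold and Mef2c, of the MEF2 family that class IIa deacetylases bind, at least 8.86-fold lower. Vgll2, a partner of TEAD factors, differed by -7.46. Nfatc1, a calcineurin-dependent factor of slow fibres, was the one that rose (0.75).

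**Figure D3:**
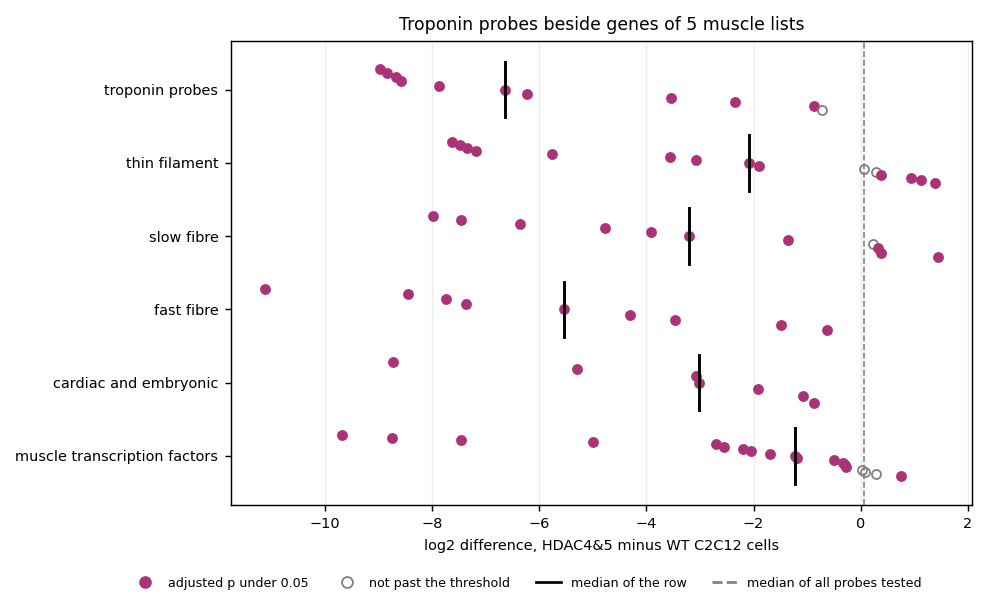
Log2 difference between HDAC4&5 and WT C2C12 cells (x axis) for the 11 tested troponin probes and the tested genes of 5 muscle lists. Filled points passed an adjusted p of 0.05 in limma, open points did not, black bars are medians, and the dashed line is the median of all probes tested. Troponins, with a median of -6.64, lie to the left of the thin filament list at -2.09.

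The troponin genes lie in 3 pairs of a troponin I and a troponin T gene, and 2 single loci. In the RefSeq gene order of GRCm38.p6, Lad1 lies between Tnni1 and Tnnt2, Lsp1 and Prr33 lie between Tnni2 and Tnnt3, and no gene lies between Tnni3 and Tnnt1. In 1 of the 3 pairs the genes clearly fell by different amounts, Tnni1 at least 119-fold with this background correction and Tnnt2 5.11-fold. In another, Tnnt1 fell 380-fold beside Tnni3, whose probe 2 fell 1.83-fold. Tnni3 probe 2 was already dim in WT cells (mean -3.03) and had less room to fall than Tnnt1 (mean 3.77). With normexp it differed by -0.040 without passing, so the contrast in this pair is uncertain. In the third, Tnni2 (-8.84) and Tnnt3 (-6.23 and -6.64) both fell strongly. Among the 2 nearest genes on each side and those between, 12 of 23 were tested in C2C12 cells. Of these, 7 were lower and none higher, with a median of -0.41. Pkp1, a desmosome protein gene next to Tnnt2, differed by -3.21 and Lsp1 by -0.72, while the neighbours of Tnnc2 (Ube2c, Snx21 and Acot8) differed by -0.12 to -0.0016 without passing. The falls of the skeletal troponins were thus larger than those of the tested genes next to them.

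For 6 of the 8 genes the RefSeq set of GRCm38.p6 held a promoter, and the 250 bases before the most upstream start were read. Tnni2 and Tnnt3 were not in the set. The windows of the Tnni1 and Tnnt2 pair and of the Tnnt1 and Tnni3 pair are shown, 5′ to 3′, to let their sequence be compared. Tnni3 was dim, and whether it fell depended on the background correction. Capitals mark E-boxes (CANNTG, the site of MyoD family factors) and the MCAT element (CATTCC on either strand, the site of TEAD factors). The Tnni1 window is chr1:135799171-135799420 on the plus strand, that of Tnnt2 is chr1:135836084-135836333 on the plus strand, that of Tnnt1 is chr7:4515976-4516225 on the minus strand, and that of Tnni3 is chr7:4522529-4522778 on the minus strand.
Tnni1: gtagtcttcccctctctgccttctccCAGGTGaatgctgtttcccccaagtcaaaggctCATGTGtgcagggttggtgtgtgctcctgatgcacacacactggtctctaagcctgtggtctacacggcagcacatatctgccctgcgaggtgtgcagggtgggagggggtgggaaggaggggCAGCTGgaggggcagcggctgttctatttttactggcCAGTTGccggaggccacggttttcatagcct
Tnnt2: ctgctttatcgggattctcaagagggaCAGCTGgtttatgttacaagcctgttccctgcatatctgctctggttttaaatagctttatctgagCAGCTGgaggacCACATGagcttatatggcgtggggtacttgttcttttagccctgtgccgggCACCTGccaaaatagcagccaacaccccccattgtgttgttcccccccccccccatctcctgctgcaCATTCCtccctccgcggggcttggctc
Tnnt1: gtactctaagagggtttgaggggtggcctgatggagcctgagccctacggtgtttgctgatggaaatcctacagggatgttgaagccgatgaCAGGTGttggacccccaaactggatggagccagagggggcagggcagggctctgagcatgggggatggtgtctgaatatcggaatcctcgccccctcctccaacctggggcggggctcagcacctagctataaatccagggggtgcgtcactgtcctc
Tnni3: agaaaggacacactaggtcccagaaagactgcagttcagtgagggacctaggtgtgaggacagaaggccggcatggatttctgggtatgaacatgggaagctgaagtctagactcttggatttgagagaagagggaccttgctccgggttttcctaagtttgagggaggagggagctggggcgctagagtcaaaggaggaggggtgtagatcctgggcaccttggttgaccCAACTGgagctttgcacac

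All 6 windows held an E-box, as did 66.1% of the 27025 windows of all genes. There were 4 in Tnni1, 4 in Tnnt2, 2 each in Tnnc1 and Tnnc2, and 1 each in Tnnt1 and Tnni3. Tnni1 and Tnnt2, which fell by very different amounts, thus held the same number. The MCAT element was in the windows of Tnnt2, 27 to 22 bases before the start, and of Tnnc1, 58 to 53 bases before it, and in 12.6% of all windows. The MEF2 consensus and the CArG box were in none of the 6, and in 3.03% and 1.41% of all windows. These are matches of letters in a short window and say nothing about binding.

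The genes whose values followed a troponin most closely were found by Pearson correlation over the arrays on which its spot was used, against 14024 other genes. The arrays fall into 4 groups that differ in tissue, and the spots of Tnnc2, Tnnt1, Tnni2 and Tnnt3 were saturated on all 7 soleus arrays and those of Nrap on 4, so these are descriptions of levels across groups, with muscle values at the scanner's limit, and carry no test. Synpo2 and Nrap, which encode proteins of Z-discs and myotendinous junctions, were among the nearest to Tnnc2 (r = 0.999 for both, 14 arrays), to Tnni1 probe 2 (0.998 for both, 19 arrays) and to Tnnt1 (0.999 and 0.997, 17 arrays). Tnnt3 probe 2 was nearest to Ankrd2, Smpx and Xirp2 (0.996 to 0.997, 19 arrays), Tnni2 to Myom2, Synpo2 and Trim54 (0.995 to 0.996, 18 arrays) and Tnnc1 to Trp53inp2, Myoz2 and Stac3 (0.997 to 0.998, 17 arrays). For these 6 genes between 172 and 417 others had r over 0.95. Tnnt2 stood apart, with 2 such genes, Cdc14b (0.961) and Porcn (0.953), and Sphk1 (0.949) next. Tnni3 probe 2 was nearest to Vsir, Kank3 and the unnamed probe NAP052665-1 (0.980 to 0.986).

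Adult muscle showed what the same probes read where troponin is abundant. In soleus Con the probes of Tnni2, Tnnt1, Tnnc2 and both of Tnnt3 were saturated on all 3 arrays, Tnnc1 and Tnni1 probe 2 on 1 each. Of the 11 probes tested between soleus Con and C2C12 WT, 10 were higher and 1 lower in muscle, where 74.2% of all 22637 probes tested passed, 34.3% as higher and 39.9% as lower. Tissue, slide and extraction cannot be told apart here. The median of all probes tested was -0.16, and with quantile normalization it was -0.43, with normexp 0.31 and in the deposited matrix -0.31. Troponin differences are to be read against these shifts.

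**Figure D4:**
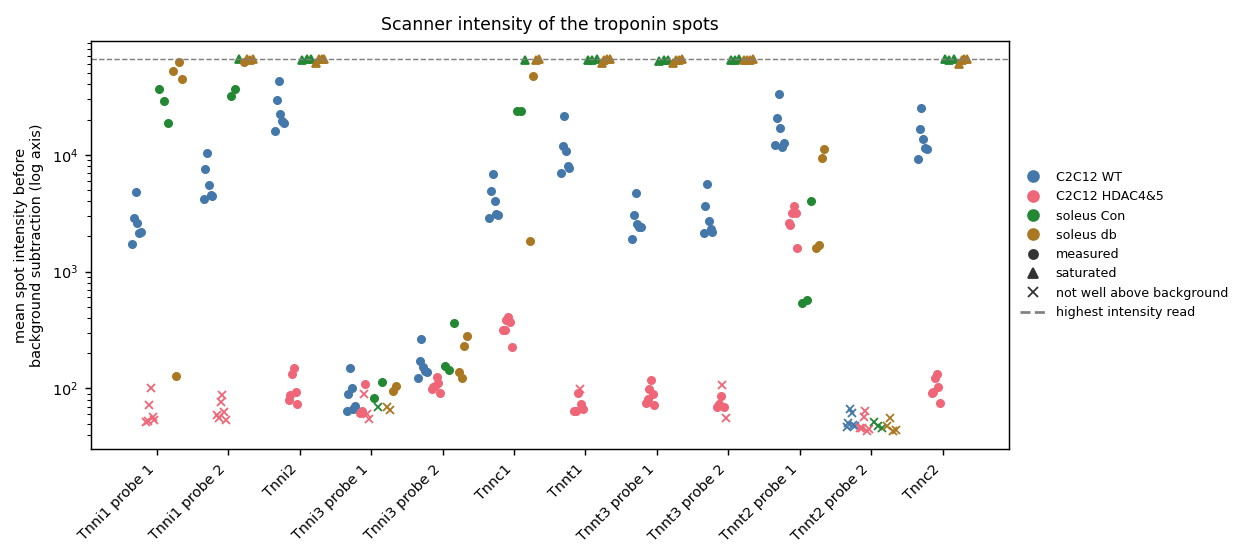
Mean spot intensity before background subtraction (y axis, log scale) for the 12 troponin probes, by group. Triangles are saturated spots and crosses spots not well above background, and the dashed line is the highest intensity read, 65535. The soleus spots of Tnni2, Tnnt1, Tnnt3 and Tnnc2 all lie along this line.

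The slow forms were high in soleus, as were the fast ones. Tnnt3 probe 1 read 8.27, 8.58 and 6.68 in soleus Con and at most 1.55 in WT cells, at least 85.1-fold higher in muscle, and probe 2 was at least 74.9-fold higher. Tnnt1 was at least 21.5-fold higher, Tnnc2 at least 17.2-fold and Tnni2 at least 9.95-fold (adjusted p from 5.76e-08 to 0.000229 in limma for these 5 probes). These bounds hold for this scaling only, in which the muscle spots had reached the limit of the scanner. With quantile normalization the log2 differences were 5.07 and 5.09 for the Tnnt3 probes, 3.22 for Tnnt1, 2.77 for Tnnc2 and 1.95 for Tnni2, and all 5 still passed. Tnni1 probe 1, which was not saturated, read 7.51, 7.44 and 5.00 and was higher in muscle (log2 difference 5.13, standard error 0.47, adjusted p = 3.37e-06 from limma). Tnni1 probe 2, with 1 of 3 spots saturated, was 24.9-fold higher. Tnnc1 was 25.8-fold higher over the 2 soleus Con spots used, 1 of them saturated.

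The cardiac forms behaved differently from each other. Tnni3 probe 2 read -0.91, -0.78 and -0.87 in soleus Con against -3.24 to -2.81 in WT cells and was 4.52-fold higher in muscle (log2 difference 2.18, standard error 0.13, adjusted p = 1.53e-07 from limma). Tnnt2 probe 1 read 1.34, 1.69 and 2.77 in soleus Con and at least 4.05 in WT cells. It was the only tested troponin probe lower in muscle, 4.88-fold (log2 difference -2.29, standard error 0.27, adjusted p = 2.32e-05 from limma), and its difference lay between -2.70 and -1.99 under the other settings. The order of Tnnt2 by group mean was WT cells (4.22), soleus db (3.35), soleus Con (1.93) and HDAC4&5 cells (1.86), in which HDAC4&5 cells overlapped with soleus Con, and Con with db. The highest db array and the lowest WT array both read 4.05.

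In db against Con soleus, few troponin probes could be compared at all. The 5 probes saturated on every array of both groups give no difference, Tnnt2 probe 2 was not well above background, and Tnni3 probe 1 was well above background on 2 arrays of each group and was not tested. Of the 5 probes left, 0 passed the adjusted p in limma and 1 had an unadjusted p under 0.05, where 0.0054% of all 18529 probes tested passed the adjusted p and 6.44% had an unadjusted p under 0.05. The methods' t-test also called 0 of 5. The arrays of slide 1 had a lower 75th percentile than those of slide 2, so saturated spots sat higher on this scale on slide 1, and values are given by slide.

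Tnnt2 probe 1 was the probe with the unadjusted p under 0.05 (limma's unadjusted p = 0.0174, exact permutation p = 0.0857, two-sided). On slide 1 it read 1.34 and 1.69 in Con and 2.95 and 2.70 in db muscle. On slide 2 it read 2.77 in Con and 3.70 and 4.05 in db muscle. Within each slide both db arrays lay above the Con arrays, by 1.32 and 1.11 on average, while the groups overlapped across slides. The difference was 1.42 (standard error 0.48, 95% interval 0.32 to 2.52), a fold of 2.67, with an adjusted p of 0.665 from limma, and 1.23 with slide as a block (standard error 0.21, adjusted p = 0.0854 from limma). It did not pass under any setting tried, with a range from 1.12 to 1.84.

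Tnni3 probe 2 leaned the other way. It read -0.91, -0.78 and -0.87 in Con and -1.05, -1.86, -1.91 and -1.42 in db muscle. The groups did not overlap, as was the case for 10.4% of all probes tested. The difference was -0.71 (standard error 0.31, 95% interval -1.43 to 0.014) with an adjusted p of 0.779 from limma, and an exact permutation test, two-sided, gave p = 0.0571, where 3 against 4 arrays cannot go below 0.0286. Its 2 within-slide differences were -0.61 and -0.80.

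The probes of Tnni1 disagreed on 1 array. Probe 1 read 7.51, 7.44 and 5.00 in Con and -1.67, 6.52 and 6.07 on the db arrays used, and the first db array, at 8.26, was left out as an outlier spot. On the second db array, where probe 1 read -1.67, probe 2 was saturated at 8.13. Probe 2 otherwise read 7.35, 7.89 and 6.83 in Con and 8.46, 6.43 and 6.62 in db muscle. The difference at probe 1, -3.01 (standard error 2.11, adjusted p = 0.895 from limma), rested on that array and was -0.35 without it. At probe 2 it was 0.055 (95% interval -1.27 to 1.38), with 4 of 7 spots saturated. Tnnc1 differed by 0.055 as well (95% interval -1.14 to 1.25), over 2 Con and 3 db spots, 3 of these 5 saturated. Its spots left out as outliers read 7.15 on the second Con array and 3.52 on the first db array. With outlier spots kept Tnnc1 differed by -0.90. Without saturated spots Tnnc1 differed by 0.79 and Tnni1 probe 2 by 0.84, neither of which passed.

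**Figure D5:**
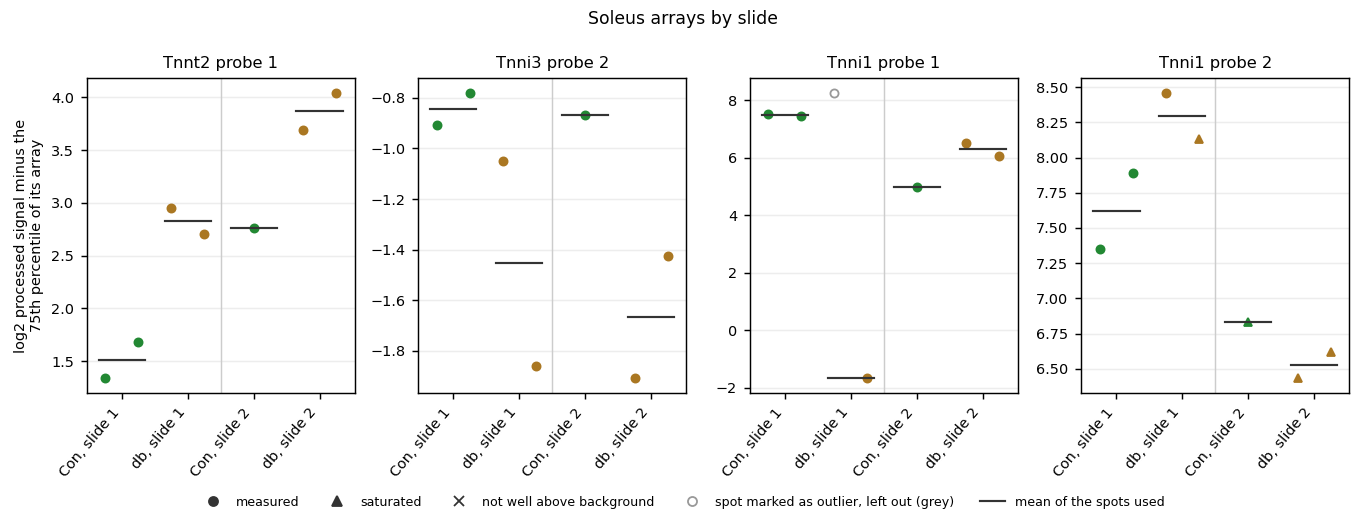
Log2 processed intensity minus the 75th percentile of its array (y axis) for 4 troponin probes on the soleus arrays, split by slide and group. Points are arrays and bars the means of the spots used. Tnnt2 probe 1 is higher in db than in Con on both slides, and Tnni1 probe 1 has 1 db array at -1.67.

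Other muscle genes were no different in the test. None of the 17 thin filament, 9 slow fibre, 10 fast fibre, 5 cardiac and embryonic and 18 transcription factor genes tested in soleus passed the adjusted p in limma, and their medians were -0.23, -0.10, -0.52, 0.79 and -0.067. Markers of the fast muscle that lies next to soleus read lower in db muscle. All 4 (Myh4, Pvalb, Actn3 and Mybpc2) were measured on every array, and none passed the adjusted p, with differences from -2.66 to -1.92. Their summed level ran from 249.8 to 542 times the 75th percentile in Con and from 20.8 to 209.7 in db muscle. These 4 are also part of the fast fibre list, whose 10 tested genes went both ways, from -2.66 to 0.46. The 5 adipocyte markers, all well above background on every array, differed in sum, from 107 to 176 in Con and from 54.1 to 94.9 in db muscle, with 0 passing. This sum followed Cfd (log2 difference -1.91), while Adipoq (0.53), Plin1 (0.72) and Cidec (1.19) read higher in db muscle, and the median of the 5 was 0.53. The sums of the fibroblast, erythrocyte, macrophage, smooth muscle and Schwann cell markers overlapped between Con and db muscle. The fast troponins Tnni2, Tnnt3 and Tnnc2 were saturated on the same arrays, so a matching difference could not be seen in them, and the part of these markers in the values of Tnnt2 and Tnni3 was not tested.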

How the data were processed

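RNA (100 ng, Cy3) from 12 C2C12 samples and 7 soleus muscles was hybridised to 1-colour Agilent arrays. The authors deposited a scanner file per array, with spot intensity made by Agilent Feature Extraction 9.5.1.1, and a matrix of normalized intensity values, a ratio per probe with unstated scaling, in which spots not well above background are blank. In its C2C12 columns 89.9% of the saturated spots are blank as well. The matrix numbers the db samples differently from the scanner files, so it was used by group only. Its columns Con 1, Con 2, db 3 and db 4 followed their closest scanner file loosely. The SD of the log2 ratio was 0.36 to 0.45 there and about 0.002 in the other columns. Probe coordinates are those of mm9 in the scanner files.

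Processed signals were taken as log2 minus the 75th percentile of each array. Outlier spots were left out and saturated spots kept. Probes that cleared the background limit on all arrays of one or both groups were tested with limma 3.58.1 in R 4.3.3, with Benjamini-Hochberg adjustment over all probes tested and a threshold of 0.05. Scripts were tested on simulated data. The members, gene lists and tests were chosen with earlier results of these data known. All 8 genes are named with every probe. Of each of the 5 muscle lists (thin filament, slow fibre, fast fibre, cardiac and embryonic, transcription factors), the 4 genes with the largest differences that passed are named. Genes named beyond these (the rising genes, Tpm2, Tpm4 and those named for the background limit) were chosen after their values were seen. For each troponin the 3 nearest genes by correlation are named, except for an item that is not reported here, and neighbours are the 2 nearest genes on each side in RefSeq. Symbols were updated through accessions for 27198 probes.

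Replicates are separate samples in the labels. The study's methods call cell replicates separate dishes or wells, but give 3 biological replicates per group for the arrays, where the labels list 6 C2C12 samples per group. Which C2C12 samples may share a culture is not given in the sources used here, and p-values there treat all 6 as replicates. Same-numbered samples deviated together (correlation 0.228 to 0.584 over 6 C2C12 pairs, 0.371 to 0.661 over 3 soleus pairs) and always shared a slide, so a fit with the number as a block was run beside the reported ones, which have no block. Differently numbered samples of the same slide deviated together as well (0.202 to 0.544, and 0.269 to 0.731). The number of arrays limits the precision. Alternatives were quantile normalization, normexp, the deposited matrix, other filters, gene-level values, the methods' t-test, blocks, and each slide or replicate left out.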

Additional observations from a re-analysis of the deposited data

How the results depend on the processing

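In C2C12 cells 139 of 144 single-probe values under other settings kept their direction and their side of the threshold. The exceptions were those of Tnni3. Probe 2 did not pass with normexp (-0.040). Probe 1 turned to 0.31 with normexp and passed with slide as a block, with the replicate block (adjusted p = 0.00839 from limma) and without slide 2 (-0.96). The number of probes that passed was 10 of 11, and 6 of 6 when probes had to be well above background in both groups, where fewer were tested. With the replicate block it was 11 in C2C12 cells and 0 in soleus, and the block changed no other call. Between soleus Con and WT cells all 127 values kept their call, and the number that passed was 4 of 4 in the deposited matrix and 6 of 6 without saturated spots, where fewer could be tested. Leaving out each soleus sample in turn gave 0 to 0 probes between db and Con and 11 to 11 between soleus Con and WT cells.

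Between db and Con soleus 8 of 86 values changed sign, none of them past the threshold. Tnnc1 was -0.16 with quantile normalization, -0.37 with the replicate block, from -0.33 (without db replicate 2) to 0.29 when each sample was left out in turn, and -0.90 with outlier spots kept, a setting chosen after seeing the data. Tnni1 probe 2 was -0.020 with quantile normalization and from -0.29 to 0.38 when each sample was left out, being below 0 without Con replicate 3 (-0.21), db replicate 1 (-0.29) or db replicate 2 (-0.18). The cause was not tested. Saturation hides any difference in Tnni2, Tnnt1, Tnnt3 and Tnnc2 in muscle, and signal near background limits Tnni3 and, in HDAC4&5 cells, Tnni1.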
